A study of Mus musculus with 10 samples.

Results

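The genes of transmitter identity described here encode the proteins that load a fast transmitter into vesicles or make it. The 10 genes were named in advance and are all among the 33502 gene symbols of the deposited count matrix. They are the vesicular glutamate transporters *Slc17a6* (VGLUT2), *Slc17a7* (VGLUT1) and *Slc17a8* (VGLUT3), the vesicular transporter of GABA and glycine *Slc32a1* (VGAT), the glutamate decarboxylases *Gad1* and *Gad2*, the cholinergic genes *Chat* (choline acetyltransferase), *Slc5a7* (high-affinity choline transporter) and *Slc18a3* (vesicular acetylcholine transporter), and the glycine transporter of glycinergic terminals *Slc6a5*. Nuclei came from tissue punches around the paraventricular thalamic nucleus (PVT) in C57BL/6J mice aged 12 weeks, and the labels name no treatment or transgene. The methods describe 4 mice pooled for each of 4 samples and do not cover all 10 libraries. Of the 10 libraries, 6 are labelled female (replicates 1 to 6). The labels of the other 4 libraries give no sex, and the deposited metadata list all their nuclei as male, so they are called male replicates 1 to 4 below. A count is a number of unique molecular identifiers (UMIs), the tags that mark captured RNA molecules in droplets.

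A neuron that releases glutamate needs a vesicular glutamate transporter, and in the forebrain VGLUT2 is typical of thalamic and habenular relay neurons while VGLUT1 is typical of cortical ones. A GABA neuron makes its transmitter from glutamate with the decarboxylases and packs it with VGAT, so that *Gad1* or *Gad2* RNA without *Slc32a1* RNA covers synthesis but not this vesicular loading. A cholinergic neuron takes up choline, acetylates it and loads acetylcholine into vesicles, and the gene of the vesicular transporter lies within the *Chat* gene in what is called the cholinergic locus. The medial habenula beside the PVT is known for neurons that release both glutamate and acetylcholine, and it marks such neurons by nicotinic receptor subunits and the transcription factor *Pou4f1*.

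The positions of the genes in the GRCm38 build (GENCODE annotation) place *Slc17a6*, *Slc17a7* and *Slc6a5* on chromosome 7, *Slc32a1*, *Gad1* and *Gad2* on chromosome 2, *Chat* and *Slc18a3* on chromosome 14, *Slc17a8* on chromosome 10 and *Slc5a7* on chromosome 17. The whole 2413-base span of *Slc18a3* (chr14:32462438-32464850) lies inside the span of *Chat* (chr14:32408203-32465989) on the same strand, with 0 shared exonic bases. *Gad1* (chr2:70553072-70602014) shares 10286 bases of its span with *Gad1os* on the opposite strand and 0 exonic bases. For the genes that carried the contrasts between neuron groups below, the 250 bases before the RefSeq start (GRCm38.p6) are shown 5′ to 3′ on the strand of the gene where this stretch holds no exonic base of the gene. Capitals mark matches to the motifs of the next paragraph on either strand. They stand for *Slc17a6* (chr7:51621580-51621829, plus strand), *Slc17a7* (chr7:45163671-45163920, plus strand), *Slc32a1* (chr2:158610508-158610757, plus strand), *Slc5a7* (chr17:54299035-54299284, minus strand) and *Slc18a3* (chr14:32464851-32465100, minus strand).
Slc17a6: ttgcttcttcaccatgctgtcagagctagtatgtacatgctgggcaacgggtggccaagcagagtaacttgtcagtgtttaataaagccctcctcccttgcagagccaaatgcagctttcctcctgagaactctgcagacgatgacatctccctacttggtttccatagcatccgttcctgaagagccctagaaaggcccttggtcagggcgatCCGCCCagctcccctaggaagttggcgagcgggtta
Slc17a7: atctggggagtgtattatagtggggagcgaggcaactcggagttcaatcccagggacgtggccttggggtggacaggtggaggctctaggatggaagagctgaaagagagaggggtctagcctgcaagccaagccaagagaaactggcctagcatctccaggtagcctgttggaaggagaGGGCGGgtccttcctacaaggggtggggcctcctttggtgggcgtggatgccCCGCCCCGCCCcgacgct
Slc32a1: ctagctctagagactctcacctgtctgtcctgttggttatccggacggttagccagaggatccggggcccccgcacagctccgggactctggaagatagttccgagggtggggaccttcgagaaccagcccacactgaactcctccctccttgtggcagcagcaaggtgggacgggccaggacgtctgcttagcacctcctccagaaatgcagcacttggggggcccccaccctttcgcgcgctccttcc
Slc5a7: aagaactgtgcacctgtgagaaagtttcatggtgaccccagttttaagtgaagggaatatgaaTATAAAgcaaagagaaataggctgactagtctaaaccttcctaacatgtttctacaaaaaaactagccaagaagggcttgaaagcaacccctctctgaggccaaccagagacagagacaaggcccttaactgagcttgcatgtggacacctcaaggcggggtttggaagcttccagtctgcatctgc
Slc18a3: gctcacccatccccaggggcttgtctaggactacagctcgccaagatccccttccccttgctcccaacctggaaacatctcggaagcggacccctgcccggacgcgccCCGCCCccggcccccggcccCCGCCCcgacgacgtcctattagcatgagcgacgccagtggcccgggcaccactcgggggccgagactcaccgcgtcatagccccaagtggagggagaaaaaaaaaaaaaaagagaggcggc

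Searched on both strands were the TATA box letters TATAAA, found in 12.4% of 32851 mouse promoters of the same length, the GC box letters GGGCGG, found in 32.7%, the homeodomain core TAATTA, found in 4.84%, and the E-box CAGCTG, found in 13.0%. *Slc17a7* held GGGCGG 3 times (2 of the matches share a base), *Slc18a3* held it 2 times and *Slc17a6* held it 1 time. A second RefSeq start of *Slc17a6* (window chr7:51624387-51624636, not shown) held TAATTA 1 time and no GGGCGG, with 41.2% G and C. *Slc5a7* held TATAAA, and *Slc32a1* held none of the 4 motifs. The G and C content was 66.0% for *Slc18a3*, 62.4% for *Slc32a1* and 61.2% for *Slc17a7*, and 45.6% for *Slc5a7*, against a median of 52.4% over all promoters. These matches describe the letters of the window alone.

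The data hold 20503 nuclei with a deposited cluster name, 10410 of them in 8 neuron clusters. Male libraries held between 7568267 and 55956635 UMIs and female libraries between 5119927 and 12891409 UMIs, and the median neuron had between 12615 and 21418 UMIs in male and between 5729.5 and 9775.5 UMIs in female libraries. The sets of libraries also differ in annotation: 1555 symbols had at least 50 UMIs in male and 0 in female nuclei, and 509 the reverse. Of 20457 distinct cell barcodes 46 occurred in more than 1 library. Marker lists of the 8 cell types were each highest in their own type. The astrocyte list, for example, summed to at most 197 CPM in any neuron cluster of any library, against at least 4797 CPM in astrocytes. These sums were scaled in separate tables, so they give a rough difference in size only. Sums of raw UMIs per library and cell type or neuron cluster entered the quasi-likelihood test of edgeR, with each class set against the average of all other classes, and a gene was called higher or lower where the adjusted p was under 0.05 and the log2 fold change beyond 0.5 in size. Levels are CPM (counts scaled to a common library total) of each sum, scaled within a table. Apart from the rough check of the marker lists, CPM of cell types, of neuron clusters and of all neurons are therefore not compared with each other. The authors built the clusters from these same nuclei, so the tests describe clusters and measure how repeatable a difference was over libraries. In bulk sums, fewer nuclei that use a gene and less RNA per nucleus cannot be told apart.

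Neurons carried 8 of the 10 genes above the average of the other cell types. *Slc17a6*, the only member that passed the filter on low counts in this comparison, was at 572 ± 91.7 CPM in neurons (mean ± SD, n = 10 libraries) and between 93.8 ± 45.6 CPM in astrocytes and 147 ± 134 CPM in fibroblasts. The level exceeded the average of the other types by 2.60 on the log2 scale (SE 0.13, adjusted p = 5.9e-30 from edgeR) and did so in all 10 libraries. Of the 9842 genes tested, 34.8% were called higher in neurons. In the fit without the filter, where 36.8% of 28845 genes were called higher, *Slc17a7* (2.11), *Slc17a8* (2.59), *Slc32a1* (2.16), *Gad2* (1.35), *Chat* (5.99), *Slc5a7* (3.25) and *Slc18a3* (2.33) were called too. *Gad1* had a value of -0.18 (adjusted p = 0.75) and *Slc6a5* one of 1.29 (adjusted p = 0.10), and neither was called. *Slc18a3* was higher in 4 of 10 libraries only. In fibroblasts *Slc17a8* was at 15.7 ± 26.4 CPM on 7 UMIs, against 15.2 ± 6.76 CPM in neurons. It was called higher there too (2.02, SE 0.68). *Slc32a1* in fibroblasts (3.30 CPM) and *Slc18a3* in endothelial cells (1.83 CPM), on 1 UMI each, also had means above those in neurons (2.56 and 1.52 CPM).

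Among the 8 cell types, the highest mean level of *Gad1* was in oligodendrocyte precursor cells (OPCs). There *Gad1* was at 49.8 ± 23.5 CPM (n = 9 libraries, 108 UMIs), with the lowest library at 13.7 CPM, against 3.03 ± 1.99 CPM in neurons. The log2 fold change in OPCs was 4.19 (SE 0.28), higher in 9 of 9 libraries, from the fit without the filter, in which 10.2% of genes were called higher in OPCs. *Gad2* was not called there (-0.18, adjusted p = 1 from edgeR). *Slc5a7* was also called in OPCs, by 2.76 (SE 0.47, 37 UMIs), at 17.2 ± 11.2 CPM. In ependymal cells, where 16.0% of genes were called higher, *Gad1* was higher by 2.12 (SE 0.40) on 30 UMIs. *Chat* was called there by 2.65 on 7 UMIs from 2 of 9 libraries, and with sums of at least 30 nuclei the call was lost (adjusted p = 0.060). After every nucleus had been thinned to 2000 UMIs, 8.03 ± 4.69% of OPC nuclei had a *Gad1* UMI, against 0.311 ± 0.621% of oligodendrocytes in the same libraries (median depths before thinning 4428 and 2759 UMIs), and the share was higher in OPCs in 9 of 9 libraries. *Slc5a7* reached 3.06 ± 3.74% of OPC nuclei against 0.840 ± 1.43% of oligodendrocytes, higher in 5 of 9 libraries.

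The 8 neuron clusters were compared over the 10307 neurons with more than 1000 detected genes. Of the genes, 6 passed the filter on low counts among 11139 tested, and *Slc32a1*, *Gad1*, *Slc18a3* and *Slc6a5* are given from the fit without it. By the marker lists, Neurons (6) was habenula-like, with 9 of 9 markers called higher. Neurons (1), (2) and (4) were PVT-like, with 7, 5 and 4 of 8 markers. Neurons (5) had 4 of 8 markers of the PVT list, 2 of 9 of the habenula list and both tested markers of a forebrain GABA list of 9 genes. By count Neurons (5) thus met the naming rule for PVT-like, at least 3 markers of a list and more than of any other. It was nevertheless left without a name here, as were Neurons (3), (7) and (8), which did not meet the rule. The background of the counts below is the share of all tested genes called higher in a cluster, which was 7.17% in Neurons (1), 7.8% in (2), 12.1% in (3), 11.8% in (4), 11.7% in (5), 22.0% in (6), 7.24% in (7) and 8.31% in (8). Called lower were 5.09%, 4.32%, 16.8%, 10.1%, 7.68%, 21.1%, 4.0% and 5.68% in the same order.

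**Figure D1:**
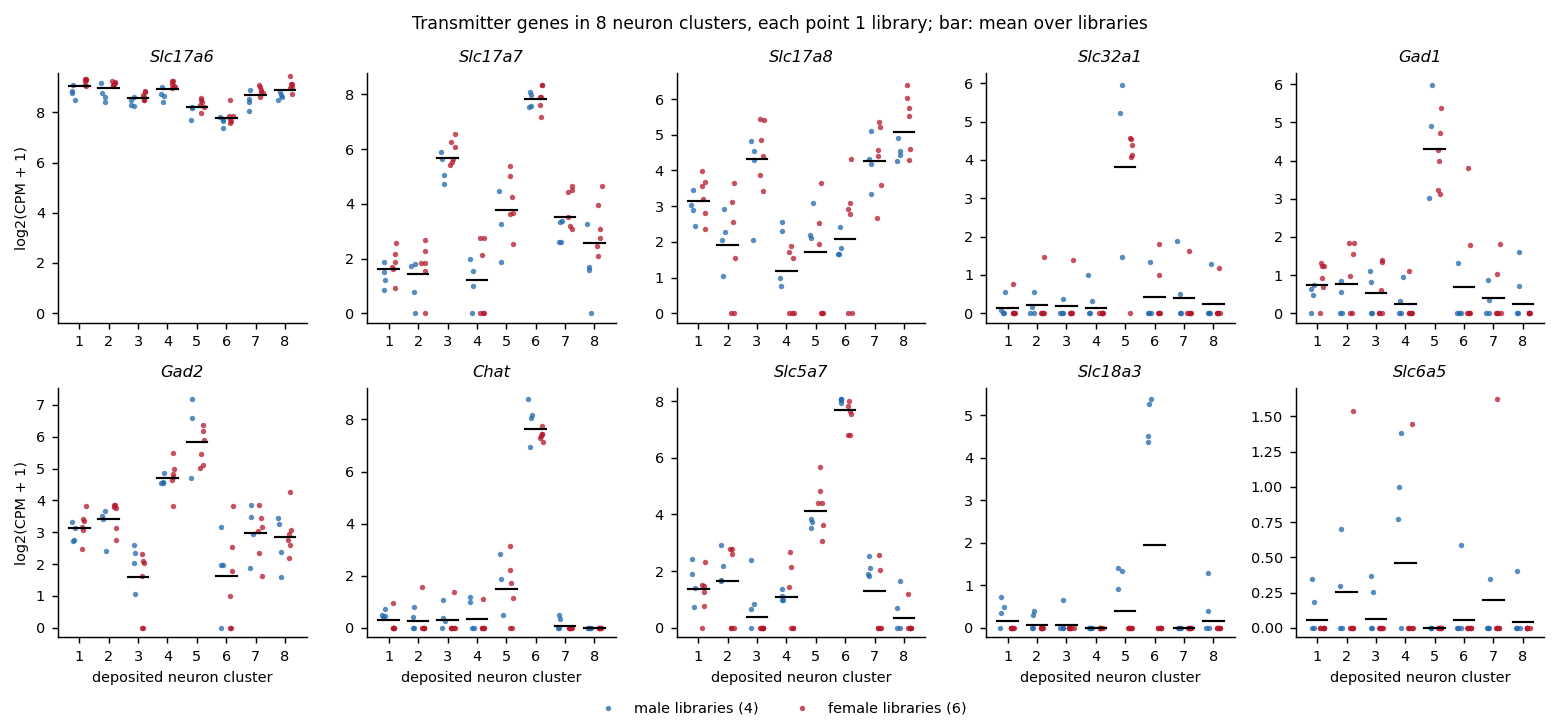
Level of each transmitter gene, log2(CPM + 1) on the vertical axis, in the 8 deposited neuron clusters on the horizontal axis. Each point is 1 library (red female, blue male) and the black bar is the mean over libraries; *Chat*, *Slc5a7* and *Slc17a7* stand highest in Neurons (6), *Slc32a1*, *Gad1* and *Gad2* in Neurons (5), while *Slc17a6* is above 100 CPM in every library of every cluster.

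*Slc17a6* was the most widespread of the genes: 9513 of 10307 neurons (92.3%) had a UMI, and no cluster lacked it. In Neurons (1), the largest cluster, its level was 356, 536, 440.2 and 458 CPM in male replicates 1 to 4, and 525.5 CPM at the lowest, 615 CPM at the median and 640.3 CPM at the highest in the 6 female libraries. In Neurons (6) the male libraries were at 163, 215, 222 and 200.3 CPM, and the female libraries at 189 CPM at the lowest, 222 CPM at the median and 357 CPM at the highest. The 2 clusters touched in 1 value range only, since the highest library of Neurons (6) was just above the lowest of Neurons (1). *Slc17a6* was called lower in Neurons (6) by 0.94 on the log2 scale (SE 0.06, 0 of 10 libraries higher) and in Neurons (5) by 0.52 (SE 0.06, 0 of 9 libraries higher), where the mean was 302 ± 53.8 CPM; the latter value lay close to the fold threshold and fell inside it under 5 alternatives, 3 of which left out a library (male replicate 3, -0.48, female replicate 3, -0.49, and female replicate 4, -0.48). In Neurons (1), (2), (4) and (8) it was higher by 0.46, 0.39, 0.34 and 0.30, all under the fold threshold. The order of the mean levels was Neurons (1), (2), (4), (8), (7), (3), (5) and (6), and of the neighbours in it only (3) and (5) differed beyond their spread (0.37 ± 0.27 on the log2(CPM + 1) scale, mean ± SD of the paired difference, higher in 9 of 9 libraries, two-sided exact sign-flip test over libraries, adjusted p = 0.034 over 70 neighbour pairs).

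*Slc17a7* was concentrated in Neurons (6), with a second and lower level in Neurons (3). In Neurons (6) it was at 186, 269, 252 and 191 CPM in male replicates 1 to 4, and in the female libraries at 142 CPM at the lowest, 239 CPM at the median and 327 CPM at the highest. In Neurons (3) the male libraries were at 25.7, 48.6, 58.3 and 32.0 CPM and the female libraries between 41.9 and 92.5 CPM with a median of 57.7 CPM. The lowest library of Neurons (6) was thus above the highest of Neurons (3). The gene was called higher in both, by 5.15 (SE 0.11) in Neurons (6) and by 2.55 (SE 0.13) in Neurons (3), each in 10 of 10 libraries, and lower in Neurons (1), (2) and (4) by 2.36, 2.33 and 2.34. Neurons (6) held 60.5% of the 2850 *Slc17a7* UMIs of neurons and Neurons (3) held 25.7%. Neurons (6) exceeded Neurons (3) by 2.17 ± 0.37 on the log2(CPM + 1) scale (10 of 10 libraries, exact sign-flip test, adjusted p = 0.034), and Neurons (3) exceeded Neurons (5), the next, by 2.00 ± 1.26 (9 of 9 libraries, adjusted p = 0.034 by the same test). Per kilobase of exon, the *Slc17a7* level in Neurons (6) was 43.9 ± 11.1 CPM and that of *Slc17a6* 41.2 ± 9.5 CPM. Per kilobase of the whole gene span, introns included, it was 19.4 CPM for *Slc17a7* and 4.53 CPM for *Slc17a6*, so the comparison of the 2 glutamate transporters depends on the length used, and nuclear RNA holds introns. The methods name a 3′ kit, and UMIs count captured molecules rather than bases. Values per kilobase therefore do not rank the 2 genes. In Neurons (1), the *Slc17a6* level per kilobase of exon was 99.2 ± 17.5 CPM and that of *Slc17a7* 0.424 ± 0.23 CPM.

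*Slc17a8* followed neither pattern, and was highest in Neurons (8), (3) and (7). In Neurons (8) it was at 18.1, 20.8, 29.3 and 22.4 CPM in the male libraries and from 18.5 to 83.7 CPM in the female libraries, with a median of 49.4 CPM. The mean levels were 37.9 ± 22.8 CPM in Neurons (8), 22.7 ± 12.7 CPM in (3) and 21.4 ± 11.8 CPM in (7), and 8.3 ± 3.4 CPM in Neurons (1), with at most 5.01 CPM in the other 4 clusters. *Slc17a8* was called higher in Neurons (8) by 2.36 (SE 0.21, 10 of 10 libraries), in Neurons (3) by 1.77 (SE 0.18, 9 of 10) and in Neurons (7) by 1.49 (SE 0.22, 9 of 10). It was called lower in Neurons (4) by 2.69, in (2) by 1.05, in (6) by 1.03 and in (5) by 0.99. The call in Neurons (6), on 27 UMIs, was lost without male replicate 1 (adjusted p = 0.054 from edgeR), and that in Neurons (5), on 29 UMIs, without male replicate 3 (0.064) or female replicate 6 (0.054). Neurons (8) and (3) did not differ beyond their spread (0.77 ± 0.83, exact sign-flip test, adjusted p = 0.087), nor did (3) and (7) (0.04 ± 1.45, adjusted p = 1.0 by the same test), while Neurons (7) exceeded Neurons (1) by 1.14 ± 0.88 (9 of 10 libraries, adjusted p = 0.046).

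The GABA genes were concentrated in Neurons (5), which held 224 of the 256 *Slc32a1* UMIs of neurons (87.5%), 229 of the 300 *Gad1* UMIs (76.3%) and 588 of the 1632 *Gad2* UMIs (36.0%). Male replicate 1 had fewer than 10 nuclei of this cluster, so its sum was left out and n is 9 libraries. *Slc32a1* was at 36.3, 61.4 and 1.79 CPM in male replicates 2 to 4 and between 0 and 22.6 CPM in the female libraries, with a median of 18.3 CPM. *Gad1* was at 28.8, 62.6 and 7.15 CPM in the same male libraries and between 7.76 and 40.8 CPM in the female ones, with a median of 16.8 CPM. *Gad2* was at 95.4, 143 and 25.0 CPM in these male libraries and between 31.1 and 81.6 CPM in the female ones, with a median of 50.5 CPM. The spread was wide for all 3 genes: male replicate 3 was the highest and male replicate 4 the lowest or next to lowest in each, and *Slc32a1* was at 0 in female replicate 4. All 3 were called higher, *Gad2* by 3.17 (SE 0.16, 9 of 9 libraries), and in the fit without the filter, in which 9.33% of 28219 genes were called higher, *Slc32a1* by 5.80 (SE 0.25, 8 of 9) and *Gad1* by 5.18 (SE 0.22, 9 of 9).

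*Gad2* was called higher in a second cluster, in which *Slc32a1* and *Gad1* were not called. In the PVT-like Neurons (4) it was at 22.8, 22.5, 28.3 and 22.4 CPM in the male libraries and between 13.3 and 43.4 CPM in the female libraries, with a median of 26.5 CPM. It was called higher there by 1.55 (SE 0.17, 10 of 10 libraries), and Neurons (4) exceeded Neurons (2), the next in the order, by 1.29 ± 0.73 on the log2(CPM + 1) scale (10 of 10 libraries, exact sign-flip test, adjusted p = 0.034). *Slc32a1* and *Gad1* had 5 and 6 UMIs in the 1060 nuclei of Neurons (4), where *Gad2* had 336. Between Neurons (5) and (4) the *Gad2* difference of 1.11 ± 0.96 did not pass the test (8 of 9 libraries, exact sign-flip test, adjusted p = 0.11). *Gad2* was called lower in Neurons (3) by 1.73 and in Neurons (6) by 1.61.

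The 3 cholinergic genes were concentrated in the habenula-like Neurons (6), which held 1842 of the 1886 *Chat* UMIs of neurons (97.7%), 1715 of the 2050 *Slc5a7* UMIs (83.7%) and 150 of the 175 *Slc18a3* UMIs (85.7%). *Chat* was at 436, 122, 286 and 268 CPM in male replicates 1 to 4 and between 138 and 213 CPM in the female libraries, with a median of 166 CPM. *Slc5a7* was at 246, 264, 266 and 267 CPM in the male libraries and between 109 and 256 CPM in the female ones, with a median of 192 CPM. *Slc18a3* was at 21.7, 40.3, 37.3 and 19.6 CPM in the male libraries and at 0 in all 6 female libraries. *Slc5a7* was called higher by 6.62 (SE 0.12) and *Chat* was called higher too, each in 10 of 10 libraries, and *Slc18a3* was called in the fit without the filter, in which 14.3% of genes were called higher in Neurons (6). Since *Chat* had at most 14 UMIs in any other cluster and 0 in the 671 nuclei of Neurons (8), which allows a share of up to 0.447%, its difference is given against Neurons (5), the next in the order, where it was at 2.67 ± 2.74 CPM: 6.02 ± 1.36 on the log2(CPM + 1) scale (9 of 9 libraries, exact sign-flip test, adjusted p = 0.034).

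Per kilobase of exon in Neurons (6), *Chat* was at 45.2 ± 20.2 CPM, *Slc5a7* at 37.7 ± 10.8 CPM and *Slc18a3* at 4.93 ± 6.85 CPM, with 6 of 10 libraries at 0. Per kilobase of span the values were 3.68 CPM for *Chat*, 8.36 CPM for *Slc5a7* and 4.93 CPM for *Slc18a3*, which has no intron, so the order of these means changes with the length used. UMIs count captured molecules, so values per kilobase do not rank these genes either. In CPM without a length, *Chat* and *Slc5a7* stood above *Slc18a3* in every library of Neurons (6). The *Slc18a3* mean includes the female libraries, all at 0, so its place in the order also depends on the libraries included. *Slc5a7*, unlike *Chat*, had a second and lower level in Neurons (5), at 10.6, 12.4 and 13.4 CPM in male replicates 2 to 4 and between 7.42 and 50.5 CPM in the female libraries with a median of 20.1 CPM. It was called higher there by 2.33 (SE 0.24, 9 of 9 libraries), and Neurons (5) exceeded Neurons (2) by 2.60 ± 1.34 (9 of 9 libraries, exact sign-flip test, adjusted p = 0.034). *Chat* was called in Neurons (5) as well, by 1.56 (SE 0.44), on 13 UMIs in these 9 libraries, higher in 5 of them, and the call was lost with DESeq2 (adjusted p = 0.0505) and in the female libraries alone (adjusted p = 0.0501). *Slc5a7* was called lower in Neurons (3) by 2.85, in (8) by 2.57, in (4) by 1.82 and in (1) by 0.99.

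*Slc6a5* had 28 UMIs in 28 of 10307 neurons (0.272%), 9 of them in Neurons (4) and 7 in Neurons (2). In Neurons (5), where *Slc32a1* was highest, 0 of 935 nuclei had a UMI, which allows a share of up to 0.321%. Counting intervals and limits cover counting error alone.

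Depth differs between clusters, so shares of nuclei with a UMI were also taken after thinning each nucleus to 2000 UMIs, which left out 847 of 2462 oligodendrocytes and 30 of 870 nuclei of Neurons (6). The same genes in oligodendrocytes, which do not use them for transmission, served as the background. *Slc17a6* was found in 63.8 ± 8.5% of Neurons (1), 42.2 ± 6.3% of Neurons (5) and 35.6 ± 8.6% of Neurons (6), against 18.5 ± 8.3% of oligodendrocytes, at median depths before thinning of 12071, 6338, 7648 and 2759 UMIs. The background of *Slc17a6* was thus high, and the share in Neurons (6) was above it in 9 of 10 libraries. *Slc17a7* was found in 35.8 ± 7.0% of Neurons (6) and 8.02 ± 4.7% of Neurons (3) against 1.0 ± 1.2% of oligodendrocytes, *Chat* in 29.4 ± 11.5% of Neurons (6) against 0.0135%, and *Slc5a7* in 27.8 ± 7.6% of Neurons (6) against 0.905%, each above the background in at least 9 of 10 libraries.

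In Neurons (5), *Gad2* was found in 10.6 ± 4.4% of thinned nuclei, *Slc32a1* in 5.59 ± 4.6% and *Gad1* in 4.80 ± 3.6%. The background was 0.582% for *Gad2* and 0.311% for *Gad1*, and 0 of 1615 oligodendrocytes had a *Slc32a1* UMI at this depth, which allows a share of up to 0.186%. *Gad2* in Neurons (4) reached 4.28 ± 1.6% and *Slc17a8* in Neurons (8) 7.11 ± 5.2%, against 0.673% and 0.896% of oligodendrocytes. Without thinning, the shares were 97.7% for *Slc17a6* in Neurons (1) and 67.8% in Neurons (6), 68.5% for *Slc17a7*, 56.0% for *Chat* and 51.8% for *Slc5a7* in Neurons (6), and 19.7% for *Gad2*, 10.1% for *Gad1* and 9.33% for *Slc32a1* in Neurons (5).

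**Figure D2:**
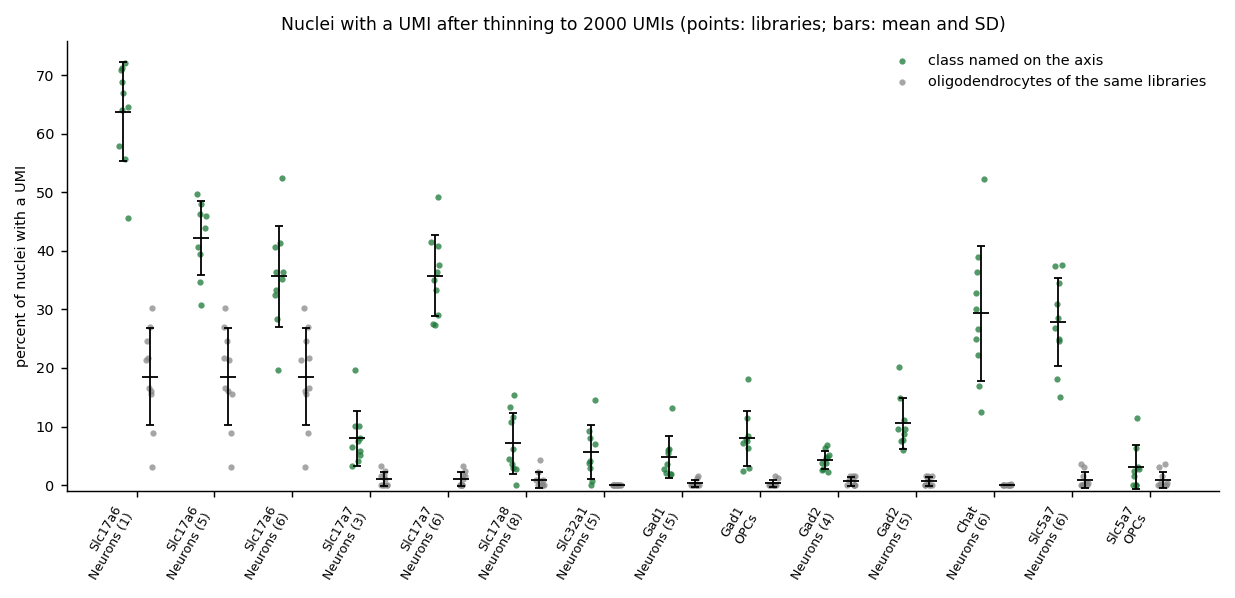
Percent of nuclei with at least 1 UMI of a gene after thinning to 2000 UMIs, for 14 pairs of gene and class (green) beside the same gene in oligodendrocytes (grey). Each point is 1 library, and the black marks show the mean over libraries with the SD as error bars. *Slc17a6* has a background of 18.5% in oligodendrocytes, and the other genes have one of at most 1.0%.

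Whether the genes were found in the same nuclei was asked with an odds ratio within bins of UMI count of each library, so that deep nuclei do not pair genes by depth alone. Of 36 pairs with an odds ratio, 28 could be tested over at least 6 libraries, and the smallest p that 10 libraries allow is 0.00195. The strongest pair was *Chat* and *Slc5a7*: 425 of 579 *Chat* nuclei also had *Slc5a7*, with an odds ratio of 19.2 (over 1 in 10 of 10 libraries, exact sign-flip test, adjusted p = 0.0137 over 28 pairs). *Slc17a7* was found with *Chat* (444 nuclei, odds ratio 14.2, 10 of 10 libraries) and with *Slc5a7* (447 nuclei, odds ratio 7.95, 10 of 10), both at an adjusted p of 0.0137 by the same exact test. In the 4 male libraries, too few for this test, *Slc18a3* had odds ratios of 18.0 with *Chat*, 14.3 with *Slc5a7* and 8.95 with *Slc17a7*.

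Among the GABA genes, *Slc32a1* was found with *Gad2* (94 nuclei, odds ratio 6.77, 9 of 9 libraries) and with *Gad1* (69 nuclei, 5.59, 8 of 9), and *Gad1* with *Gad2* (90 nuclei, 4.04, 9 of 10). Their adjusted p were 0.0156, 0.0199 and 0.0156 by the exact sign-flip test. Across groups, the same nuclei carried *Slc17a6* less often together with *Slc32a1* (odds ratio 0.209, under 1 in 8 of 9 libraries and 1 in male replicate 1, adjusted p = 0.0199, exact test) and with *Gad1* (0.276, under 1 in 9 of 10 libraries and again 1 in male replicate 1, adjusted p = 0.0156, exact test). Male replicate 1 held 1 *Slc32a1* and 2 *Gad1* nuclei, all with *Slc17a6*. Its odds ratio of 1 comes only from a constant added to both sums of the ratio, so it holds no information. *Slc17a7* and *Gad2* had an odds ratio of 0.419 (under 1 in 10 of 10 libraries, adjusted p = 0.0137, exact test), and *Slc17a6* with *Gad2* one of 0.507 that did not pass (adjusted p = 0.066, exact test). *Slc17a6* and *Chat* had an odds ratio of 0.497 over all neurons (adjusted p = 0.039, exact test) and, with the cluster as a further stratum, a log2 odds ratio of 0.20.

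Since the clusters differ in these genes, the same odds ratios were taken within single clusters, an alternative added after the data had been seen. Within Neurons (6), *Chat* and *Slc5a7* had an odds ratio of 4.00 (over 1 in 9 of 10 libraries, exact sign-flip test, adjusted p = 0.029) and *Slc17a7* and *Slc5a7* one of 2.09 (10 of 10 libraries, adjusted p = 0.029, exact test). *Slc17a7* and *Chat* had one of 1.47 (9 of 10 libraries), which did not pass (adjusted p = 0.15, exact test), and *Slc17a6* with *Chat* one of 1.06 (adjusted p = 0.85, exact test). *Slc17a6* and *Slc17a7* had one of 0.977 (adjusted p = 0.92, exact test). Of the 539 *Chat* nuclei of Neurons (6), 413 had *Slc17a6*, 438 had *Slc17a7*, 420 had *Slc5a7* and 107 had *Slc18a3*, against 212, 190, 93 and 7 of the 331 nuclei without *Chat*. The median depth of the former was 9444 UMIs and that of the latter 4525 UMIs.

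In Neurons (5), nuclei with a GABA gene had *Slc17a6* less often than the others. Of its 110 *Slc32a1* nuclei 32 had *Slc17a6*, against 656 of the 825 nuclei without *Slc32a1*, although the former were deeper (median 7029 against 6061 UMIs). The odds ratio of *Slc17a6* was 0.186 with *Slc32a1*, 0.315 with *Gad1* and 0.288 with *Gad2*, each with an adjusted p of 0.035 by the exact sign-flip test. Within the cluster, *Slc32a1* and *Gad2* (odds ratio 6.16), *Slc32a1* and *Gad1* (5.30) and *Gad1* and *Gad2* (4.35) were found together, each with the same adjusted p of 0.035 by this exact test. *Slc5a7*, which was called in this cluster, had 3 of its 79 nuclei among those with *Slc32a1*, an odds ratio of 0.599 that did not pass (adjusted p = 0.16, exact test).

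In Neurons (4), 160 of the 161 *Gad2* nuclei had *Slc17a6*, and 860 of the 899 without *Gad2* had it too (odds ratio 1.28, adjusted p = 0.67, exact sign-flip test). Of these 161 *Gad2* nuclei 2 had *Slc32a1* and 2 had *Gad1*. In Neurons (3), 428 of 441 *Slc17a7* nuclei and 186 of 188 *Slc17a8* nuclei had *Slc17a6*, and *Slc17a7* with *Slc17a8* had an odds ratio of 0.737 that did not pass (adjusted p = 0.19, exact sign-flip test). In Neurons (8), 121 of 125 *Slc17a8* nuclei had *Slc17a6*.

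**Figure D3:**
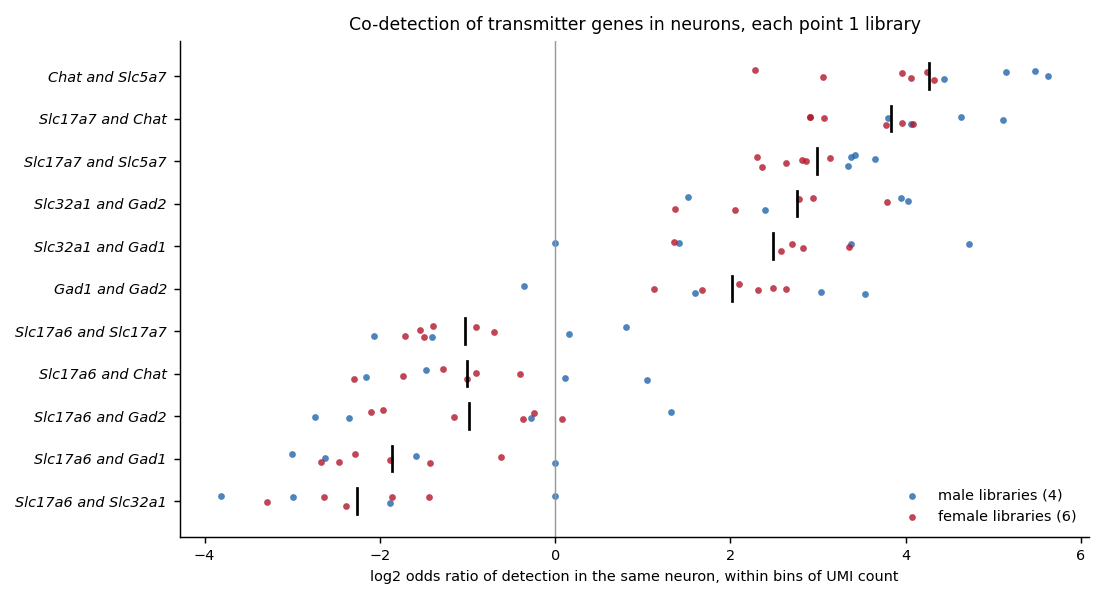
Log2 odds ratio of finding 2 transmitter genes in the same nucleus, within bins of UMI count, for 11 pairs over all neurons. Each point is 1 library (red female, blue male), the black bar is the mean and 0 marks no association. *Chat* with *Slc5a7* lies above 0 in 10 of 10 libraries and *Slc17a6* with *Slc32a1* below 0 in 8 of 9, with male replicate 1 at 0. That library held 1 *Slc32a1* nucleus and gives no information on this pair.

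Sorted by the transmitters whose genes had at least 1 UMI, 76.6 ± 7.1% of neurons had glutamate transporters alone (mean ± SD over 10 libraries). Glutamate and GABA genes together were found in 7.03 ± 2.5%, glutamate and cholinergic genes together in 9.54 ± 8.0%, GABA genes alone in 1.40 ± 1.0% and cholinergic genes alone in 0.668 ± 0.546%, and 4.23 ± 2.3% had none. Neurons (6) held glutamate and cholinergic genes together in 59.0 ± 16.7% of nuclei (572 of 870), between 38.5% and 89.1% over libraries, and glutamate transporters alone in 25.4 ± 12.2%. Neurons (5) held GABA genes alone in 11.8 ± 6.3% (121 of 935 nuclei), glutamate and GABA genes in 10.8 ± 7.0% and glutamate transporters alone in 57.0 ± 9.0%. In Neurons (4), 13.1 ± 4.3% of nuclei had glutamate and GABA genes, against 7.33 ± 2.3% in Neurons (1) and 4.14 ± 2.6% in Neurons (3), where glutamate transporters alone made up 88.0 ± 3.0% and 91.3 ± 4.2%. Shares of the glutamate and GABA class and of the glutamate and cholinergic class rise with depth. Others fall: with every neuron thinned to 2000 UMIs, GABA genes alone made up 1.85%, cholinergic genes alone 2.57% and none 36.4%. A gene without a UMI in a nucleus can still be in use. In oligodendrocytes (median 2321 UMIs, against 11244 in neurons) the same sorting gave 23.1 ± 10.4% with glutamate transporters alone, 0.652 ± 0.879% with glutamate and GABA genes and 0.222 ± 0.329% with glutamate and cholinergic genes. With every nucleus thinned to 2000 UMIs, glutamate and GABA genes together were found in 1.27 ± 0.47% of neurons, 2.43 ± 1.4% of Neurons (4) and 3.86 ± 1.98% of Neurons (5), against 0.168 ± 0.363% of oligodendrocytes, and glutamate and cholinergic genes together in 28.5 ± 3.9% of Neurons (6), against 0.0135%. A glutamate transporter alone was found in 19.99 ± 8.44% of thinned oligodendrocytes, and the part of stray *Slc17a6* RNA in the mixed classes was not tested.

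**Figure D4:**
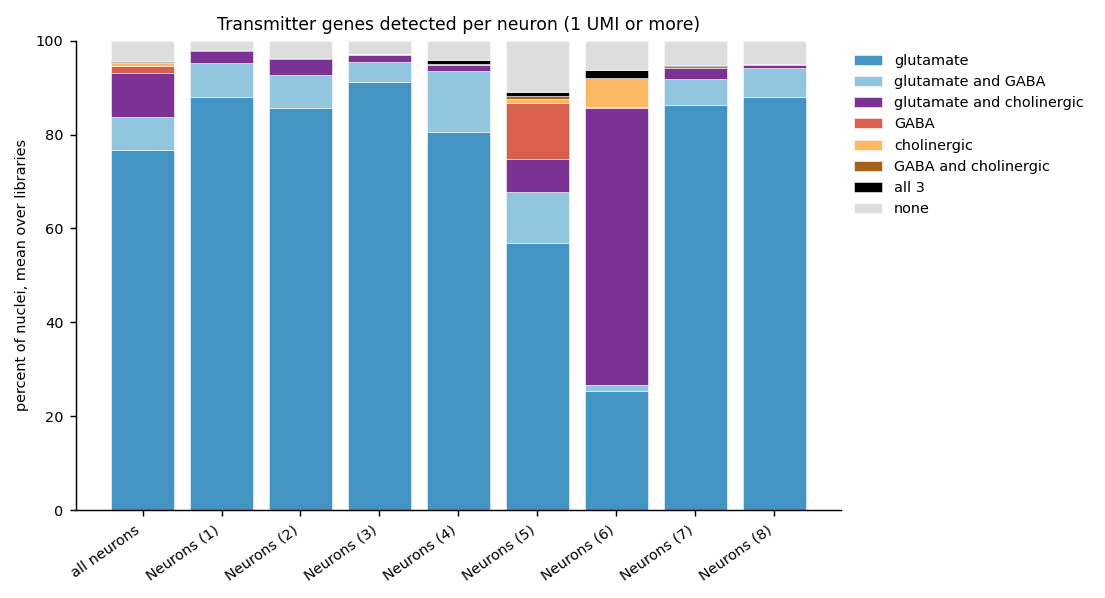
Percent of neurons by the transmitter genes detected, as stacked bars from 0 to 100 for all neurons and the 8 deposited clusters, each the mean over libraries. Neurons (6) is the cluster with a large share of glutamate and cholinergic genes together (59.0%) and Neurons (5) the one with GABA genes alone (11.8%).

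A level over all neurons of a library also holds the makeup of its dissection, and the share of Neurons (6) ranged from 2.33% of neurons in female replicate 6 to 23.1% in female replicate 1 and 25.8% in male replicate 1. *Chat* was at 68.8 CPM of all neurons in male replicate 1 and 33.2 CPM in female replicate 1, against a median of 9.04 CPM over the 10 libraries. Within Neurons (6) female replicate 1 lay inside the range of the other female libraries for *Chat* and *Slc5a7*, and was the highest female library for *Slc17a7* (327 CPM), as it was in Neurons (3) (92.4 CPM) and Neurons (7) (24.4 CPM), and the part of the cluster share in the levels over all neurons was not tested.

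Female and male libraries were compared over all neurons, and here a call needed only an adjusted p under 0.05, with no limit on the fold. Of the 10 genes 7 passed the filter, and 15.1% of 15274 genes were called in either direction. That background itself was not stable: on the symbols that both sets share, 274 genes were higher and 220 lower of 13870, and without male replicate 2 there were 1985 higher and 1965 lower of 15335. None of the 7 was called with edgeR; at an unadjusted p under 0.05 there were 2, *Slc17a6* and *Slc17a8*, and with DESeq2 *Slc17a6* had an adjusted p of 0.036 at a log2 fold change of 0.35. *Slc17a6* was between 294 and 430 CPM in the 4 male libraries and at 444 CPM at the lowest, 480.0 CPM at the median and 539 CPM at the highest in the female libraries. At this scaling the sets did not overlap. Scaled together with the other cell types, neurons reached 566 CPM in male libraries and started at 547 CPM in female ones, so the sets overlapped. How many of all genes separate the sets was not counted. The log2 fold change, female against male, was 0.36 (SE 0.11, adjusted p = 0.051 from edgeR). Without male replicate 2 the adjusted p was 0.018, without male replicate 4 it was 0.049, and without male replicate 1 it was 0.18. Within single clusters the difference in *Slc17a6* was 0.43, 0.43, 0.48 and 0.45 in Neurons (1), (2), (4) and (8), with adjusted p of 0.016, 0.049, 0.016 and 0.049 from edgeR, and between 0.24 and 0.41 in the other 4 clusters, with adjusted p between 0.13 and 0.34. The differences between clusters were not tested. The share of all genes called in these single-cluster fits is not given here, so the values do not show that *Slc17a6* stood out.

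The other genes that passed had values of 0.74 for *Slc17a8* (SE 0.28, adjusted p = 0.11), 0.32 for *Slc17a7* (0.71), -0.03 for *Gad1* (0.98), -0.04 for *Gad2* (0.96), -1.23 for *Chat* (SE 0.69, adjusted p = 0.28) and -0.57 for *Slc5a7* (0.61), with adjusted p in brackets. *Slc18a3* had 175 UMIs in 94824651 neuron UMIs of the male libraries and 0 in 31399323 of the female libraries. Over all nuclei *Slc18a3* had 190 UMIs in male and 0 in female libraries, so it is itself among the 1555 symbols counted in male nuclei alone. Whether the symbol was counted in the female libraries was not tested, and the fold limits hold only if it was. Against a floor of 3 counts over the female set, *Slc18a3* was at least 19.3-fold lower in female neurons. Within Neurons (6), with 150 against 0 UMIs, it was at least 18.5-fold lower. It was called lower in the fit without the filter (adjusted p = 0.00069 from edgeR), in which 9.12% of 28222 genes were called lower. The male and female libraries differ in depth and in the symbols counted, and *Slc18a3* lies within *Chat*; sex, annotation, depth and preparation cannot be told apart in this design.

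The genes whose levels followed a member most closely were taken over 79 sums of library and neuron cluster among 11139 genes; the sums share libraries, so the Pearson correlations are descriptions. For *Chat* they were *D130079A08Rik* and *Robo3* (both 0.96) and *Enox2* (0.95), and for *Slc5a7* *Gm12128* (0.92), *Robo3* and *Nwd2* (both 0.91). For *Slc17a7* they were *Adam11*, *Thsd7a* (both 0.89) and the transcription factor *Sox5* (0.88). *Slc32a1* and *Gad1* shared *Meis2* (0.83 each), a homeobox factor, and *Sst*, the somatostatin gene (0.74 and 0.78), followed by *B230217J21Rik* (0.73) and *Dscaml1* (0.76). *Gad2* had other leading genes, *Fxyd6* (0.80), *Ecel1* (0.77) and *Maml2* (0.72). *Slc17a6* was followed by *Pik3cb* (0.82), a catalytic subunit of phosphoinositide 3-kinase, and *Sqle* (0.81), squalene epoxidase, *Slc17a8* by *Iyd*, *Tanc1* and *Rassf3* (all 0.76), and *Slc18a3* by *Slc35f3* (0.77), *Armh4* (0.73) and *Pde2a* (0.70). *Slc18a3* was at 0 in all female sums, so its correlations also hold the difference between the sets of libraries.

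Genes that work beside the transmitter genes were described from 6 lists, set beside the share of all genes called. Of 7 genes of cholinergic transmission 6 were tested, and in Neurons (6) 4 were higher and 1 was lower. The nicotinic receptor subunits *Chrnb3* (8.65), *Chrnb4* (7.50) and *Chrna3* (7.20) rose, the last at 221 ± 46.1 CPM, as did *Prima1* (5.65), the membrane anchor of acetylcholinesterase. *Chrm2*, a muscarinic receptor, was lower in Neurons (6) by 1.52 and higher in Neurons (5) by 1.26, where *Ache*, the esterase, was higher by 0.69. The nicotinic subunits are also among the markers by which Neurons (6) was called habenula-like. The median log2 fold change of the list was 6.42 in Neurons (6), against 0.06 over all genes.

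Of 7 genes that handle glutamate and glycine, 5 were lower and 1 was higher in Neurons (6), with a median of -1.11. The glycine receptor subunits *Glra2* and *Glra3* were lower by 3.67 and 3.00 there, the glutaminase *Gls2* by 1.41, and *Slc38a2*, a glutamine transporter, was higher by 1.34 (154 ± 52.9 CPM). In Neurons (5) 3 of the 7 were higher, with *Glra3* at 126 ± 21.9 CPM (3.14) and *Glra2* at 114 ± 27.5 CPM (1.63), and the median was 0.39 against 0.03 over all genes. From the list of GABA uptake and breakdown, the GABA transporter *Slc6a11* was higher in Neurons (5) by 0.95 (48.9 ± 25.1 CPM), and *Abat*, the GABA transaminase, was lower in Neurons (6) by 0.55.

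Of 10 monoamine genes 1 was tested, *Slc18a2*, the vesicular monoamine transporter, which was higher in Neurons (6) by 1.73 (SE 0.15, 34.9 ± 22.8 CPM). Of 14 transcription factors of GABA neurons 2 were tested: *Meis2* was higher in Neurons (5) by 6.71 (131 ± 94.6 CPM), and *Sp9* by 1.90 in Neurons (5) and by 2.61 in Neurons (4), the 2 clusters in which *Gad2* was higher; *Sp9* was also called in Neurons (2). Of 10 factors of thalamic and habenular glutamate neurons 8 were tested. In Neurons (6) 3 were higher, led by *Pou4f1* (6.62) and *Nr4a2* (5.99), and 4 were lower, led by *Rora* (-2.24) and *Foxp2* (-1.43). In Neurons (5) 5 were lower, led by *Tcf7l2* (-0.996), and *Nr4a2* was higher by 1.14. *Pou4f1* is also among the markers by which Neurons (6) was called habenula-like. *Meis2* and *Sp9* are the tested markers of the forebrain GABA list above, so these factors are no separate evidence on the clusters.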

How the data were processed

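Single-nucleus RNA was measured in 10 droplet libraries. The authors aligned reads with Cell Ranger (version 6.1.1 in the submitters' notes, which name mm10), removed nuclei by gene number and mitochondrial share, clustered the rest, and deposited whole-number counts of UMIs per gene and nucleus with cluster names. Methods and notes name different Cell Ranger versions. The deposited percent of mitochondrial UMIs per nucleus was made by the authors and entered no result. The 21 other per-nucleus columns were not used.

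From these counts, UMIs were summed per library and cell type, or per library and neuron cluster (nuclei over 1000 genes, at least 10 nuclei a sum), and tested with edgeR 4.0.16 in R 4.3.3 (TMM, filterByExpr, quasi-likelihood, Benjamini-Hochberg) with a library term. Female and male sums had no block: same-numbered libraries correlated between -0.12 and 0.10, so the numbers do not pair them. Where a gene failed the filter, the fit without it was used. Odds ratios within bins of UMI count were tested by exact sign flips over libraries. The tests were tried on simulated counts. Alternatives included DESeq2 1.42.0, other filters and bins, thinning, Scrublet calls (0.7462% of nuclei) and leaving out each library. Doublets were not removed for the main results. The methods describe pools of mice for 4 samples and do not cover all 10 libraries. The p-values of the class comparisons and of the sign flips measure how a within-library difference or odds ratio varied over libraries. Those of female against male neurons measure the spread between libraries.

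The text names all 10 members, the 3 genes most like each member with at least 100 UMIs in neurons, and at most 4 called genes per list; items withheld from the text are not reported here. Members and lists were chosen with earlier results of these data known.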

Additional observations from a re-analysis of the deposited data

Results flagged for a closer look

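Of 35 groups of libraries tested for a value far from the others, 6 held one, and chance flags about 1 group in 20. Female replicate 1 stood above the other 5 female libraries over all neurons for *Slc17a7* (81.1 CPM against 14.96 to 32.6), *Chat* (33.2 CPM against 2.85 to 10.3) and *Slc5a7* (51.7 CPM against 2.61 to 15.7); its share of Neurons (6) was 23.1% against 2.33 to 7.82% in the others, and the part of that share was not tested. In Neurons (5), *Slc32a1* was at 0.0 CPM in female replicate 4 against 15.9 to 22.6 CPM. In Neurons (6), *Slc5a7* in male replicate 1 was at 246.2 CPM against 263.7 to 266.7 CPM. In Neurons (4), *Slc6a5* was at 1.72 CPM in female replicate 2 and at 0 in the other female libraries.

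The effect of Neurons (6) on *Slc18a3*, its level there against the other clusters on the log2(CPM + 1) scale, differed between the sets by -4.58 (female minus male; 0 in 6 female and 4.58 ± 0.42 in 4 male libraries). The exact permutation test over 210 splits gave p = 0.0048, adjusted over 10 effects p = 0.048. Sex, depth and annotation cannot be told apart here.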

How the results depend on the processing

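Of the leading values that answer a comparison, picked for this count, 354 under alternatives kept direction and side of the threshold, 14 moved and 2 lost their call. Among the further values 1931 stayed the same, 62 were stronger, 68 weaker, 51 moved and 2 reversed. Without the filter on low counts, genes called higher numbered 10621 in Neurons (3426 with it; 2878 to 3520 leaving out 1 library), 2633 in Neurons (5) (1307; 1207 to 1427) and 4047 in Neurons (6) (2455; 2260 to 2640). In female neurons they numbered 1882 without the filter and 274 on shared symbols (1034; 850 to 1985, the last without male replicate 2), and genes lower 2575 and 220 (1278; 1141 to 1965, the last without male replicate 2). On shared symbols 13870 of 15274 genes were tested, and the cause of the lower counts was not tested. The *Chat* share in Neurons (6) was 17.3% thinned to 1000 UMIs, 49.3% at 4000, 56.0% unthinned and 8.26% at 2 UMIs or more (29.4%; 26.8 to 31.2%). Glutamate and cholinergic genes together, at 2 UMIs or more, made up 35.5% of Neurons (6) (59.0%; 55.7 to 61.3%). With cluster strata the log2 odds ratio of *Slc17a6* and *Chat* turned to 0.1958 and that of *Slc17a8* and *Chat* to 0.1257; the cause was not tested. In the female libraries alone *Slc17a7* with *Chat* (log2 odds ratio 3.45) and *Chat* with *Slc5a7* (3.66) had an adjusted p of 0.073 by the exact test, which 6 libraries cannot bring lower. Replicate numbers do not pair the libraries; with a replicate block 748 genes were higher and 1041 lower in female neurons, and *Slc17a6* had 0.43 (adjusted p = 0.054 from edgeR). Without the library block, 3292, 1168 and 2120 genes were higher in Neurons, Neurons (5) and Neurons (6). Low UMI counts limit *Slc6a5*, *Slc18a3*, *Slc32a1* and *Gad1*.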
